A study of Mus musculus with 6 samples.

Results

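Fc receptors bind the constant part of antibodies, and C1q is the complement protein that recognises antibody clusters. This account covers 9 of the 21956 gene IDs measured by RNA sequencing in mouse lung material. They are the IgG receptors Fcgr1, Fcgr2b, Fcgr3 and Fcgr4, the signalling chain Fcer1g, the IgE receptor Fcer2a, and the C1q chains C1qa, C1qb and C1qc. The genes were found by exact match of the symbol, and all 9 passed the filter on low counts that left 12551 genes for testing. The libraries form 2 groups of 3, labelled VE and Aalter, and both carry the tissue label lung. The labels do not spell out either name and state no strain, age, sex, dose or route. The title of the series concerns alpha tocopherol, a form of vitamin E, in allergic airway inflammation, so the comparison asks how the receptors and C1q differ in the VE libraries relative to Aalter. An untreated group was not analysed here.

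The activating IgG receptors Fcgr1, Fcgr3 and Fcgr4 sit on myeloid cells and need the common gamma chain, the product of Fcer1g, to reach the surface and to signal. Fcgr2b is their inhibitory counterpart and carries an inhibitory motif in its tail, while Fcer2a (CD23) is a C-type lectin of mature B cells that binds IgE and needs no gamma chain. C1q is built from C1qa, C1qb and C1qc chains, is made largely by macrophages, starts the classical complement pathway and also coats dying cells.

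Between 12663763 and 15077851 estimated counts were assigned in the VE libraries, and between 11617074 and 16205053 in the Aalter libraries. Nothing in the labels ties the libraries to separate animals, so the p-values cover only how far these samples differ, and that spread may be technical. Leukocyte genes were abundant: S100a9, of neutrophils, ranged over 11700 to 20600 CPM (read counts normalised to the TMM-scaled library size) and Ptprc, of all leukocytes, over 1090 to 1400 CPM, whereas Ager, of alveolar type 1 cells, ranged over 1.92 to 6.37 CPM. These 3 genes were picked for the label check after their values were seen. Ager alone does not stand for the epithelium. A list of 8 alveolar epithelial markers summed to 228 to 245 CPM in VE and 177 to 190 CPM in Aalter. The library Aalter-1 stood apart from its group. On the first principal component, which held 66.7% of the variance, the VE libraries lay at -38.8, -36 and -40.2, Aalter-1 at -2.34, and Aalter-2 and Aalter-3 at 61.4 and 56. The calls of the 9 genes and of the gene lists are therefore also given without Aalter-1. For each of the 9 it was the Aalter library nearest to VE, so leaving it out widens their differences by its place alone. It was left out with that place known and leaves only Aalter-2 and Aalter-3. The smaller p-values of that fit are therefore not separate support.

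All 9 genes are protein coding in GENCODE vM21 on mm10. The genes Fcgr2b (chr1:170958617-170976547, minus strand), Fcgr4 (chr1:171018920-171029761, plus strand), Fcgr3 (chr1:171051174-171064935, minus strand) and Fcer1g (chr1:171229572-171234365, minus strand) lie in 1 cluster. The C1q genes lie side by side on the minus strand, in the order C1qb (chr4:136880129-136886187), C1qc (chr4:136889804-136893065) and C1qa (chr4:136895917-136898803). Fcgr1 (chr3:96282909-96293969) and Fcer2a (chr8:3681737-3694175) lie alone, both on the minus strand. An antisense gene, Gm38204, overlaps Fcgr2b and is not among the listed IDs, and the strand setting of the counting is not given in the sources used here.

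Fcgr2b and Fcgr3 share coding sequence for their immunoglobulin-like domains, which matters because the counting could move reads between them. Of the 1298 stretches of 50 bases in the Fcgr3 transcript, 166 (12.8%) also occur in Fcgr2b, and they are 4.75% of those of Fcgr2b. In all, 12.5% of the stretches of Fcgr2b occur in some other gene, against 1.78% for Fcer2a and 0 for Fcgr1, Fcgr4, Fcer1g and the C1q genes. The coding window centred on their longest shared run is given here as spliced sequence from GENCODE vM21, with capitals where the genes differ. It is 180 bases long with 3 mismatches (98.3% identity) and a longest shared run of 129 bases. It covers coding bases 252 to 431 of Fcgr2b (exons 3 and 4, chr1:170966649-170968107) and 237 to 416 of Fcgr3 (exons 3 and 4, chr1:171054142-171057818).
Fcgr2b: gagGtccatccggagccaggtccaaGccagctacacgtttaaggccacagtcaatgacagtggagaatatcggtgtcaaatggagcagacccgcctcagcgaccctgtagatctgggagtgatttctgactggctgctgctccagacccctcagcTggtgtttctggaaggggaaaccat
Fcgr3: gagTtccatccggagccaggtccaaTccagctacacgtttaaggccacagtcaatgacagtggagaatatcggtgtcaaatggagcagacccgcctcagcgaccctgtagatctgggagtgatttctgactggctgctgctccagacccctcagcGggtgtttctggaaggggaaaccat
Counts of this pair are therefore less certain than those of the other receptors.

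Of the 9 genes, 5 rose in VE, 1 fell and 3 did not pass the test. Over all genes tested, 12.8% rose, 19.5% fell and 32.3% changed in either direction (edgeR quasi-likelihood test, Benjamini-Hochberg adjustment, threshold 0.05). The genes that rose were Fcgr3, Fcgr4, Fcgr2b, Fcer1g and C1qc, the gene that fell was Fcer2a, and Fcgr1, C1qa and C1qb missed the threshold. The VE and Aalter libraries did not overlap in any of the 9, with 8 higher and 1 lower in VE. Among all genes, 25.6% had every VE library above every Aalter library and 26.3% every VE library below. The median log2 fold change of the 9 was 0.96, against 0.023 for all genes tested.

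**Figure D1:**
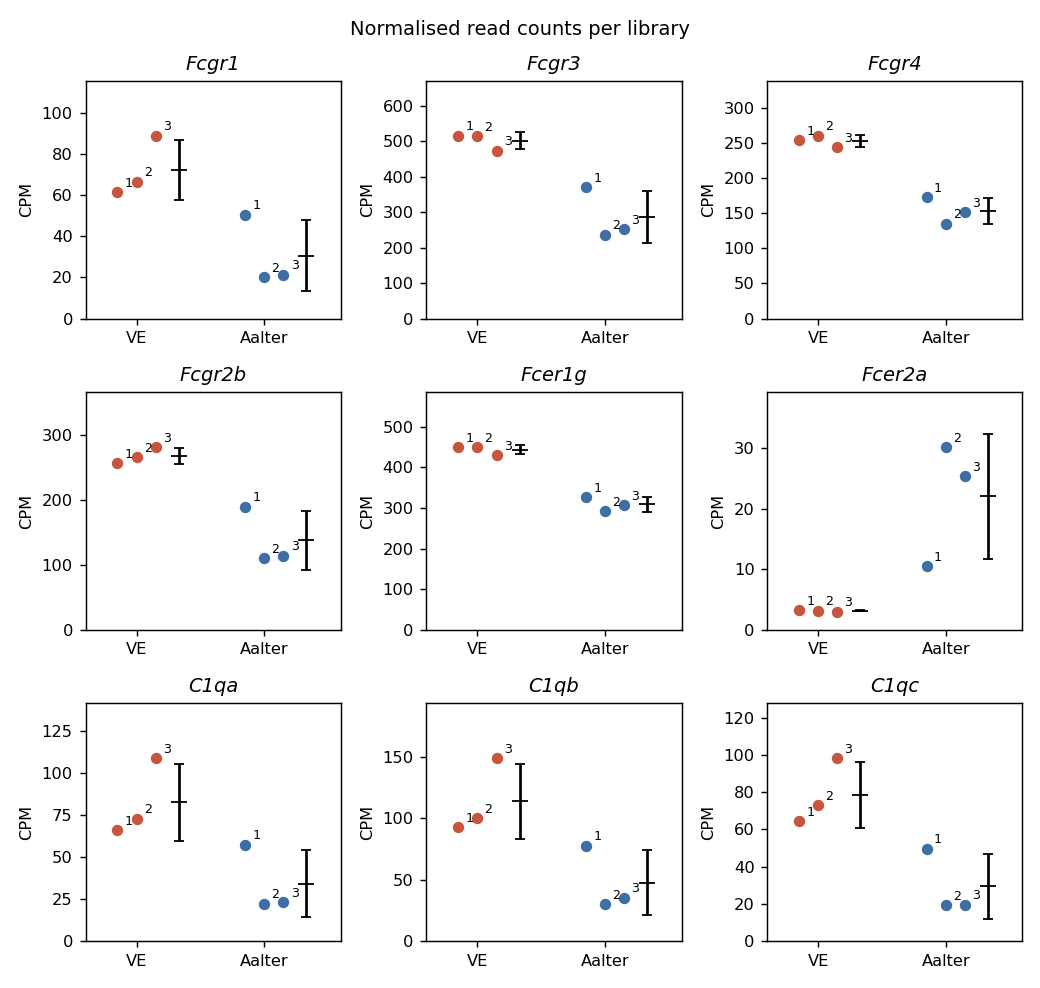
Normalised read counts (CPM) of the 9 genes in each library, VE left and Aalter right, with the replicate number beside each point and bars for mean ± SD (n = 3). The groups do not overlap in any panel, and Aalter-1 is the Aalter library nearest to VE in each.

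Of the activating receptors, Fcgr3 and Fcgr4 rose in VE and Fcgr1 missed the threshold. Values are given in the order of replicates 1, 2 and 3. Fcgr3 (CD16), which binds IgG in immune complexes, had 515, 514 and 473 CPM in VE and 370, 237 and 252 CPM in Aalter. The VE libraries lay close together at 501 ± 23.6 CPM, while Aalter averaged 286 ± 72.8 CPM (SD, n = 3 each). Fcgr3 rose by 0.81 ± 0.18 on the log2 scale (SE, edgeR adjusted p = 0.0172), and by 1.03 without Aalter-1 (edgeR adjusted p = 2.16e-07).

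Fcgr4, a receptor of mouse monocytes, macrophages and neutrophils for IgG2 subclasses, had 254, 260 and 244 CPM in VE and 173, 135 and 151 CPM in Aalter. Its means were 253 ± 7.74 CPM in VE and 153 ± 18.8 CPM in Aalter, the smallest relative spread in Aalter among the IgG receptors. The rise of Fcgr4 was 0.72 ± 0.11 (log2, SE, edgeR adjusted p = 0.0081), against 0.82 without Aalter-1 (edgeR adjusted p = 1.47e-06).

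Fcgr1 (CD64) is the high-affinity receptor that binds single IgG molecules. It had 61.5, 66.5 and 88.8 CPM in VE and 50.5, 20.0 and 21.3 CPM in Aalter, so Aalter-1 lay much nearer to VE than to the other Aalter libraries. The means were 72.3 ± 14.6 CPM in VE and 30.6 ± 17.3 CPM in Aalter. Fcgr1 did not pass with all 6 libraries (log2 fold change 1.23 ± 0.39, edgeR adjusted p = 0.053). It passed without Aalter-1 (1.81 ± 0.19, edgeR adjusted p = 0.000465).

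The shared chain Fcer1g had 450, 450 and 430 CPM in VE and 327, 292 and 307 CPM in Aalter. Its change was the smallest of the 9, at 0.52 ± 0.09 (log2, SE, edgeR adjusted p = 0.0103). Fcer1g is also the shortest of the 9 transcripts (683 bases). In a fit corrected for GC content and transcript length, which removes each library's trend on both, its log2 fold change was 0.01 ± 0.11 (edgeR adjusted p = 0.962) and the call was lost. In the same fit Fcgr3 was 0.62 and Fcgr4 0.46 on the log2 scale (edgeR adjusted p = 0.0311 and 0.0229), and Fcgr1 passed (1.24, edgeR adjusted p = 0.0401).

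The inhibitory receptor Fcgr2b rose as well. It had 257, 266 and 282 CPM in VE and 190, 110 and 114 CPM in Aalter, with means of 268 ± 12.2 CPM in VE and 138 ± 44.9 CPM in Aalter (SD, n = 3 each). The rise was 0.96 ± 0.21 (log2, SE, edgeR adjusted p = 0.018), and 1.26 ± 0.07 without Aalter-1 (edgeR adjusted p = 4.14e-08). Per kilobase of transcript, Fcgr2b made up 10.7%, 10.9% and 12.0% of the summed IgG receptor transcripts in VE, and 11.0%, 9.60% and 9.26% in Aalter. These ranges overlap through Aalter-1. Fcgr3 made up between 53.3% and 56.1% in VE and between 53.9% and 56.6% in Aalter. The share of Fcgr4 was 29.7%, 30.0% and 29.5% in VE, against 28.3%, 33.4% and 34.5% in Aalter, and that of Fcgr1 was 3.49%, 3.73% and 5.20% in VE, against 4.02%, 2.40% and 2.37% in Aalter. In none of the 4 receptors did the shares of VE and Aalter separate.

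**Figure D2:**
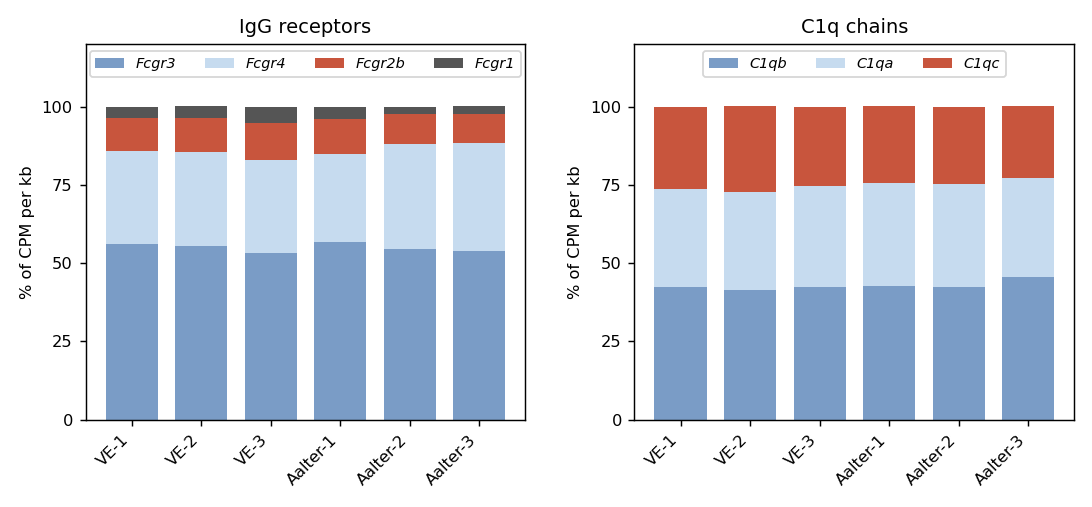
Left, share of each IgG receptor in the summed receptor transcripts (percent of CPM per kilobase), and right, share of each chain in summed C1q, with VE libraries left of Aalter libraries. Fcgr3 holds between 53.3% and 56.6% of the receptor transcripts and C1qb between 41.3% and 45.7% of C1q in all 6 libraries.

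The 3 C1q chains had similar profiles over the libraries. C1qc had 64.3, 73.2 and 98.4 CPM in VE and 49.6, 19.2 and 19.6 CPM in Aalter. C1qb had 92.9, 100 and 149 CPM in VE and 77.7, 29.9 and 35.2 CPM in Aalter. C1qa had 65.9, 73.0 and 109 CPM in VE and 57.3, 22.1 and 23.1 CPM in Aalter. In each chain VE-3 was the highest library and Aalter-2 the lowest, and Aalter-1 lay between the other Aalter libraries and the lowest VE library.

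C1qc rose by 1.41 ± 0.41 on the log2 scale (SE, edgeR adjusted p = 0.0443). C1qa and C1qb did not pass, at 1.27 ± 0.43 and 1.26 ± 0.40 (edgeR adjusted p = 0.0653 and 0.0561). The 3 estimates differ by less than their standard errors, so a pass for C1qc alone does not set it apart from the other chains. Without Aalter-1 all 3 passed, at 1.87 for C1qa, 1.81 for C1qb and 2.02 for C1qc (edgeR adjusted p = 0.0106, 0.0119 and 0.00162). C1qc lost its call in the fit corrected for GC content and length (1.56, edgeR adjusted p = 0.0608) and with scaling to library size alone (1.26, edgeR adjusted p = 0.0739).

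The chains are subunits of 1 protein, and their proportions were similar across libraries. Per kilobase, C1qa held 31.3%, 31.5% and 32.3% of summed C1q in VE and 32.9%, 32.8% and 31.4% in Aalter. C1qc held 26.4%, 27.3% and 25.3% in VE and 24.6%, 24.6% and 23.0% in Aalter, which do not overlap, and C1qb held the rest. Summed C1q was 202, 223 and 324 CPM per kilobase in VE, against 168, 64.7 and 70.8 in Aalter.

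Fcer2a was the member that fell. It had 3.22, 3.18 and 3.01 CPM in VE and 10.5, 30.2 and 25.4 CPM in Aalter, from 45, 38 and 44 estimated counts in VE and 172, 362 and 424.07 in Aalter. The VE libraries were nearly equal at 3.14 ± 0.112 CPM, while Aalter averaged 22.0 ± 10.3 CPM. The log2 fold change was -2.80 ± 0.39 (SE, edgeR adjusted p = 0.00681), a level in VE of 0.143 times that in Aalter. It was the 44th lowest log2 fold change among the 12551 genes. Without Aalter-1 it was -3.14 ± 0.14 (edgeR adjusted p = 1.05e-08), and in the fit corrected for GC content and length -2.85 (edgeR adjusted p = 0.0144). In these bulk libraries fewer cells of a type and less RNA per cell cannot be told apart, for this gene and for the rises above.

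**Figure D3:**
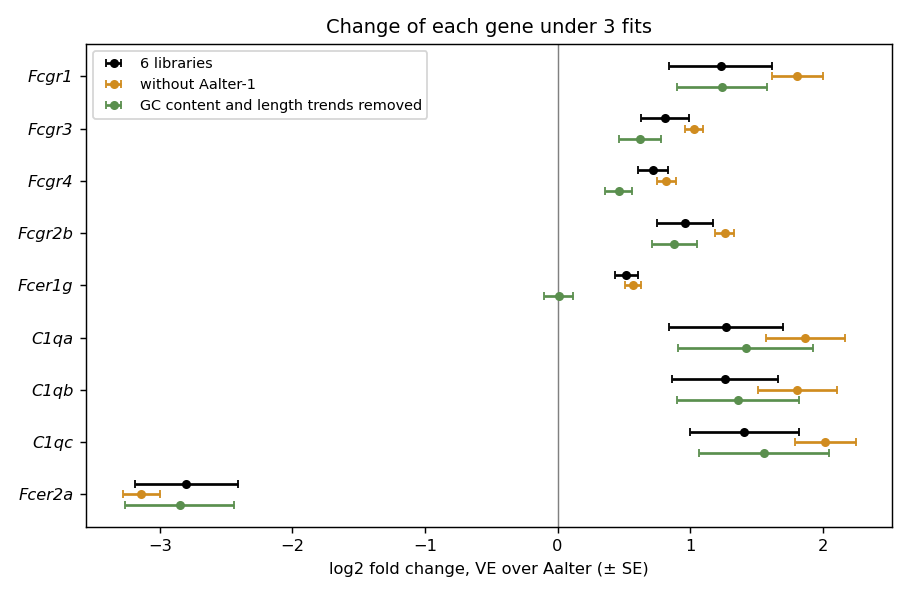
Log2 fold change of each gene, VE over Aalter, with bars for ± SE, from the fit on 6 libraries (black), without Aalter-1 (orange) and with GC content and length corrected (green). Leaving out Aalter-1, the Aalter library nearest to VE for each gene, moves every estimate away from 0, which follows from its place. Fcer1g moves to 0.01 in the fit without sequence trends.

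For each of the 9, Aalter-1 had a value between those of VE and of the other Aalter libraries. It lay 73.1% of the way to VE for C1qa, 72.1% for Fcgr1, 60.3% for Fcgr2b, 45.1% for Fcer2a and 22.7% for Fcer1g. Over the genes that passed without Aalter-1, the median was 58.7% with quartiles of 36.8% and 79.1%. Fcgr4 (33.4%) and Fcer1g lay below the lower quartile and the other 7 between the quartiles. Without Aalter-1, 8 of the 9 rose and 1 fell, against 27.8% and 28.5% of the 12804 genes then tested. Leaving out another library cost calls. Without VE-2 none of the 9 passed in edgeR after adjustment, although all 9 had an unadjusted p under 0.05 there, and without VE-1 the only call was Fcer2a. Without Aalter-2 or without Aalter-3 the calls were Fcgr4 and Fcer2a, and without VE-3 they were Fcgr4, Fcer1g and Fcer2a. The numbers of all genes called fell in the same fits, to between 2 and 110 higher and between 177 and 811 lower. The direction of the 9 fold changes was the same in all 6 of these fits.

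The order of levels was compared per kilobase of the longest protein-coding transcript. In VE it ran Fcer1g (649 CPM per kilobase), Fcgr3 (372), Fcgr4 (201), C1qb (105), C1qa (79.4), Fcgr2b (75.7), C1qc (65.4), Fcgr1 (27.9) and Fcer2a (1.4). Neighbours from C1qb to C1qc overlapped in their libraries, and the others did not. In Aalter the first 3 were the same, at 452, 213 and 122 CPM per kilobase, and did not overlap. From C1qb (43.8) through Fcgr2b, C1qa, C1qc and Fcgr1 to Fcer2a (9.82) each neighbour in Aalter overlapped the next.

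The 9 profiles were compared by the root mean square difference of centred log2 CPM over the 6 libraries. Profiles were not scaled, so this measure holds the size of a change as well as its shape. Fcgr1 lay nearer to C1qa (0.064) and C1qb (0.067) than to any other IgG receptor (0.276 for Fcgr2b, the nearest). Fcgr2b, Fcgr3, Fcgr4 and Fcer1g formed a graded series, at 0.128 for Fcgr2b with Fcgr3, 0.122 for Fcgr3 with Fcgr4 and 0.118 for Fcgr4 with Fcer1g. The root mean square of each profile itself fell in that order, at 0.565, 0.464, 0.38 and 0.266, so the series goes along with the size of the change. For Fcgr1, C1qa and C1qb it was 0.817, 0.852 and 0.828. Fcer2a lay between 1.65 and 2.28 from every other member.

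**Figure D4:**
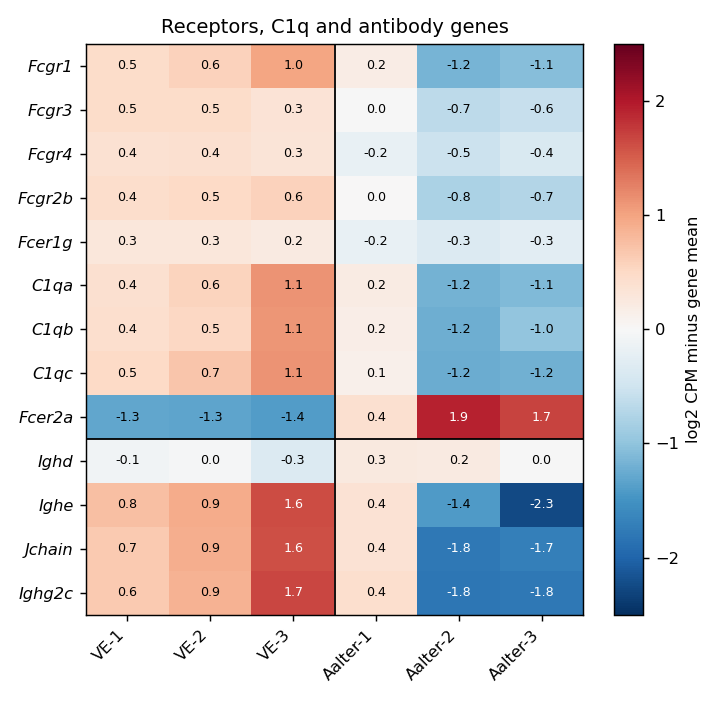
Log2 CPM minus the mean of the gene over 6 libraries, for the 9 genes and for 4 antibody genes below the line (the heavy chain genes Ighd, Ighe and Ighg2c and the J chain gene Jchain), with VE libraries left of Aalter libraries. Fcgr1 and the C1q chains are highest in VE-3 and lowest in Aalter-2, and Ighe, Ighg2c and Jchain are also highest in VE-3.

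The nearest genes outside the 9 were sought among 7698 named genes that averaged 10 CPM or more, without antigen receptor segments. For Fcgr1 and for the mean of the C1q chains the nearest was C3ar1, the receptor for complement fragment C3a, at 0.061 and 0.074. C3ar1 had 40.0, 41.6 and 59.1 CPM in VE and 30.0, 13.4 and 13.4 CPM in Aalter, and rose by 1.30 ± 0.35 (log2, SE, edgeR adjusted p = 0.0323). The next for the C1q mean were the interferon-inducible Ifi208 and the plasma cell gene Sdc1. C1qc was nearest to the macrophage gene Ms4a7 (0.028), then to the interferon-inducible genes Ifit3 and Iigp1. Fcgr2b was nearest to Slc31a2, Fcgr3 to Snx10, Fcgr4 to Prdx5 and Fcer1g to Taldo1, at between 0.021 and 0.031. Fcer2a was nearest to Bcar3 (0.088), then to Kdm2b (0.127).

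Upstream sequence is shown for Fcgr1 and for the C1q genes listed in the RefSeq promoter table (build GRCm38.p6), since these profiles lay closest together. Each line holds the 250 bases before the start, from chr3:96293970-96294219 for Fcgr1, chr4:136886201-136886450 for C1qb and chr4:136892915-136893164 for C1qc, all on the minus strand. Capitals mark AGGAAG, the core bound by PU.1 and other ETS factors, on either strand, and TTCNNNGAA, the motif of STAT factors.
Fcgr1: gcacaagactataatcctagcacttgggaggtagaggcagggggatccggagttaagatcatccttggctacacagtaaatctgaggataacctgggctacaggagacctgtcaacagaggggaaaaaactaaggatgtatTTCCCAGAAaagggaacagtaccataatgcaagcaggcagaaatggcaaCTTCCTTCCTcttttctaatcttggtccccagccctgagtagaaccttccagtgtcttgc
C1qb: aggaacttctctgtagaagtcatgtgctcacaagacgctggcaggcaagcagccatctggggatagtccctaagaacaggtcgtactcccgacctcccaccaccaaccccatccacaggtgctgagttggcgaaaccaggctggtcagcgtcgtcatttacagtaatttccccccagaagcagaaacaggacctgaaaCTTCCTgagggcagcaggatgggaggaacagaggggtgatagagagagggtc
C1qc: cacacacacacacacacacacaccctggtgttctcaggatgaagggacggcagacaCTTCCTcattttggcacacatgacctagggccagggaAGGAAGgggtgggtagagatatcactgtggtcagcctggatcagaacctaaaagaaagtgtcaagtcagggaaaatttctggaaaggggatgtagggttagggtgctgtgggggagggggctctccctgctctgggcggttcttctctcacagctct
Fcgr1 held AGGAAG at -60 and -56, which overlap, and TTCNNNGAA at -109, counted from the start. C1qb held AGGAAG at -52 and C1qc at -194 and -157. Of the 8 genes with a window in that table, 7 held AGGAAG in the first window (250 bases before and 50 after the start), all but Fcgr2b, and 1 held TTCNNNGAA. Over all 32851 windows of the table, 35.4% held AGGAAG and 8.3% TTCNNNGAA. A match describes the letters only.

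Genes that lie beside the receptors were counted within 200000 bases of the cluster. On chromosome 1, 4 of 4 members rose and the median of their log2 fold changes was 0.76. The 19 other tested genes there had a median of 0.19. The difference between these sets was not tested. Beside the C1q genes, the only other tested gene, Zbtb40, fell by 1.73 on the log2 scale (edgeR adjusted p = 0.00927).

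The ligands of these receptors are antibodies. None of the 9 heavy chain and J chain genes passed in either direction in edgeR's test, though the median of their log2 fold changes was 1.80. At an unadjusted p under 0.05 edgeR gave 2 higher and 1 lower. After adjustment DESeq2 called 1 higher and limma-voom 7, and edgeR called 7 higher without Aalter-1. The IgG heavy chain genes are near copies of each other, so the split of counts among them is uncertain. Ighg2c, an IgG heavy chain, had 2340, 2750 and 4740 CPM in VE and 1990, 425 and 436 CPM in Aalter (1.79, edgeR adjusted p = 0.116), and passed without Aalter-1 (2.93, edgeR adjusted p = 0.0121). Ighe, the heavy chain of the IgE that Fcer2a binds, had 19.3, 21.7 and 35.1 CPM in VE and 14.7, 4.25 and 2.39 CPM in Aalter, a log2 fold change of 1.82 ± 0.69 (edgeR adjusted p = 0.094), and 2.97 without Aalter-1 (edgeR adjusted p = 0.00529). Both genes share with C1q a maximum in VE-3 and an Aalter-1 value nearer to the lowest VE library than to the other Aalter libraries.

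Among 11 tested Fc-binding genes outside the 9, 2 rose and 1 fell, with a median of 0.11 on the log2 scale. Without Aalter-1, 5 rose and 3 fell, and with GC content and length corrected 1 rose and 2 fell. Over all genes tested, 12.8% rose and 19.5% fell, and 27.8% and 28.5% did so without Aalter-1. The counts of this and the following lists were not tested against these shares. The IgM receptor Fcmr fell to 10.5, 11.1 and 8.56 CPM in VE, against 19.6, 24.3 and 20.2 CPM in Aalter (log2 fold change -1.08, edgeR adjusted p = 0.00647). The rises were in Lgals3, an IgE-binding lectin (0.57, edgeR adjusted p = 0.0142), and Ms4a2, the beta chain of the high-affinity IgE receptor (1.07, edgeR adjusted p = 0.0396). The call of Ms4a2 was lost in the fit corrected for GC content and length (0.70, edgeR adjusted p = 0.0992). Fcer1a, the IgE-binding chain of that receptor and named after its values were seen, had 3.01, 2.18 and 2.81 CPM in VE and 1.70, 1.75 and 3.11 CPM in Aalter and did not pass.

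A further list held receptors that use Fcer1g or the related adaptors Tyrobp and Cd247, the adaptors themselves, and the inhibitory receptor gene Pirb. It gave 8 rises and 3 falls among 12 tested, with a median of 0.54. Pirb, which is not a partner of these adaptors, was among the rises (1.01, edgeR adjusted p = 0.0262). The counts were the same without Aalter-1, and 5 rises and 3 falls with a median of 0.17 in the fit corrected for GC content and length. The lectin receptor Clec4e (Mincle), which signals through Fcer1g, had 2860, 2890 and 2640 CPM in VE and 2010, 1180 and 1300 CPM in Aalter (0.90, edgeR adjusted p = 0.0184). Tyrobp rose by 0.54 (log2, edgeR adjusted p = 0.0182), and like Fcer1g it lost its call in the fit corrected for GC content and length (0.05, edgeR adjusted p = 0.86). So did the lectin receptor genes Clec4d (0.30, edgeR adjusted p = 0.104) and Clec4n (0.01, edgeR adjusted p = 0.954), named after their values were seen. The falls were in Ncr1, a receptor of natural killer cells (-1.86), in Cd247 (-0.51) and in Lilra5 (-1.17).

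Of 26 signalling genes downstream of Fc receptors 9 rose and 6 fell, with a median of 0.14. The counts were 12 and 9 without Aalter-1, and 13 and 3 with GC content and length corrected. Inpp5d (SHIP1), the lipid phosphatase that Fcgr2b recruits, moved the other way from Fcgr2b. It fell to 105, 107 and 108 CPM in VE, against 155, 236 and 230 CPM in Aalter (-0.96, edgeR adjusted p = 0.00967). The kinase Fyn fell by 0.98 on the log2 scale, and Cbl, a ubiquitin ligase, by 0.54 (edgeR adjusted p = 0.00688 and 0.0103). Cbl lost its call in the fit corrected for GC content and length (-0.24, edgeR adjusted p = 0.115). The kinase Syk, named after its values were seen, did not pass (0.48, edgeR adjusted p = 0.0544). It passed with GC content and length corrected (0.95, edgeR adjusted p = 0.0199) and without Aalter-1 (0.68, edgeR adjusted p = 1.9e-06).

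Of 13 tested complement components other than C1q, 3 rose, with a median of 0.62 over the 13. The rises were in Cfp (properdin, which stabilises the alternative pathway convertase, 0.54), the C1r-like protease gene C1rl (1.02) and C3, the central component (0.87, edgeR adjusted p = 0.0468). C3 had 588, 559 and 637 CPM in VE and 484, 239 and 250 CPM in Aalter. Without Aalter-1, 9 of the 13 rose, and with DESeq2 6. None fell in edgeR, DESeq2 or limma-voom, also at an unadjusted p under 0.05. Several components made mainly by the liver did not pass the filter on low counts and were seen largely in both libraries numbered 1. C9 had 35, 3 and 1 estimated counts in VE and 39, 1 and 2 in Aalter, Cfi had 59, 1 and 4 in VE and 73, 2 and 6 in Aalter, and Mbl2 had 46, 1 and 2 in VE and 27, 0 and 1 in Aalter. They were picked once their counts were known, and their relation to the other genes was not tested.

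Complement receptors and regulators gave 5 rises and 2 falls among 16 tested, with a median of 0.31, and 9 rises and 3 falls without Aalter-1. C5ar1, the C5a receptor, had 449, 469 and 458 CPM in VE and 341, 271 and 281 CPM in Aalter (0.62, edgeR adjusted p = 0.0114). The other rises were in Itgam, the alpha chain of complement receptor 3 (1.03), C3ar1, C5ar2 (1.11) and Cd93 (0.57). The falls were in Cr2, a complement receptor of B cells (-1.41, edgeR adjusted p = 0.01), and Itgax, the alpha chain of complement receptor 4 (-1.21, edgeR adjusted p = 0.0138). Among 9 tested genes of other C1q ligands and of dying cell uptake, Ptx3, a pentraxin that binds C1q (1.25, edgeR adjusted p = 0.014), and Stab1 (1.10, edgeR adjusted p = 0.0482) rose and the receptor Axl fell (-1.45, edgeR adjusted p = 0.0121). Without Aalter-1 the counts there were 2 rises and 2 falls.

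Cytokine and transcription factor genes known to act on these receptors gave 5 rises and 3 falls among 14 tested, with a median of 0.49. The counts were 7 and 3 without Aalter-1, and 6 and 1 with GC content and length corrected. Spi1, which encodes PU.1, rose by 0.46 (edgeR adjusted p = 0.0209). Ifng, whose product induces Fcgr1, had 30.7, 34.0 and 55.4 CPM in VE and 27.4, 22.2 and 20.4 CPM in Aalter (0.78, edgeR adjusted p = 0.0438), and lost its call in the fit corrected for GC content and length (0.39, edgeR adjusted p = 0.307). Ifng passed in none of the 6 fits that left out a library, including that without Aalter-1 (0.92, edgeR adjusted p = 0.0936). Il10, an anti-inflammatory cytokine gene, had 64.9, 64.8 and 72.9 CPM in VE and 48.1, 34.1 and 34.1 CPM in Aalter (0.80, edgeR adjusted p = 0.0124), and missed the threshold with GC content and length corrected (0.44, edgeR adjusted p = 0.0567). Stat6, which carries the interleukin 4 signal that induces Fcer2a, fell to 108, 105 and 111 CPM in VE, against 127, 220 and 213 CPM in Aalter (-0.79, edgeR adjusted p = 0.0261), a call also lost in the corrected fit (-0.46, edgeR adjusted p = 0.0833). Irf8 fell by 2.23 on the log2 scale (edgeR adjusted p = 0.00983).

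Over these 8 lists, 34 of 110 tested genes rose and 16 fell, against 12.8% and 19.5% of all genes tested. Without Aalter-1 the lists gave 59 and 23, against 27.8% and 28.5% of all genes then tested. The counts were 2 and 7 without Aalter-2, 0 and 3 without Aalter-3, 0 and 2 without VE-1, 0 and 3 without VE-2, and 2 and 8 without VE-3. With scaling to library size alone, which moved the median log2 fold change of all genes to -0.117, they were 12 and 20, and all genes gave 495 rises and 3231 falls in place of 1612 and 2442.

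**Figure D5:**
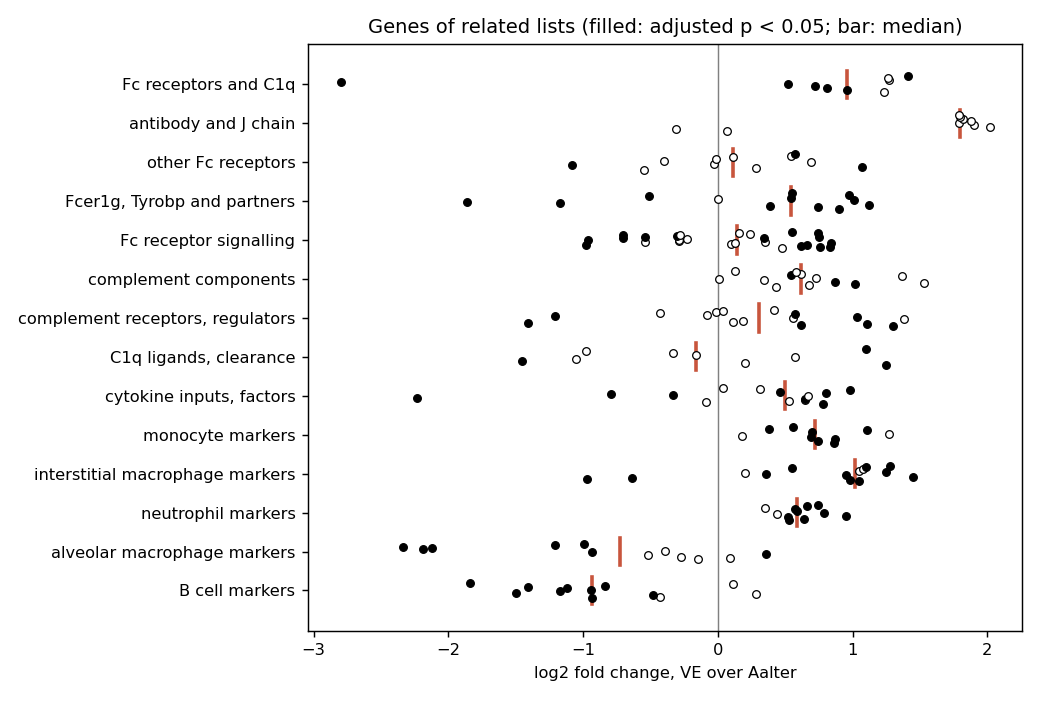
Log2 fold change, VE over Aalter, of every tested gene of the 9 members, of 8 related lists and of 5 marker lists, with filled points for an adjusted p under 0.05 and a bar at each median. The 9 members have a median of 0.96, monocyte markers 0.72, interstitial macrophage markers 1.01, neutrophil markers 0.59 and B cell markers -0.94.

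Markers of the cells that carry these receptors moved as well. Over all genes tested, 12.8% rose and 19.5% fell, and 27.8% and 28.5% did so without Aalter-1. Of 10 monocyte markers 8 rose, and their summed level was 6690 to 6820 CPM in VE and 3530 to 5090 CPM in Aalter. Of 11 neutrophil markers 9 rose, at 36500 to 44600 CPM in VE and 25800 to 30100 CPM in Aalter. Of 14 interstitial macrophage markers 9 rose and 2 fell, at 1030 to 1270 CPM in VE and 580 to 895 CPM in Aalter, and Adgre1 (F4/80) had 101, 113 and 143 CPM in VE and 80.8, 43.1 and 48.8 CPM in Aalter. Alveolar macrophage markers gave 1 rise and 6 falls among 12, with a median of -0.72 on the log2 scale. Their summed level was still higher in VE, at 9170 to 9690 CPM against 7460 to 8340 CPM in Aalter. That sum therefore does not describe most of these markers. Without Aalter-1 there were 10 rises of monocyte markers, 9 of neutrophil markers, 11 rises and 2 falls of interstitial macrophage markers, and 1 rise and 8 falls of alveolar macrophage markers. With any other library left out, each of these lists kept at most 1 rise and 1 fall. In the fit corrected for GC content and length 6 monocyte, 6 neutrophil and 5 interstitial macrophage markers rose. There S100a9 and S100a8, which make up most of the neutrophil sum, turned to -0.50 and -0.73, against 0.64 and 0.53 without the correction (log2, edgeR adjusted p = 0.17 and 0.134 with it). None of these markers was at 0 in all libraries. Their part in the higher values of the IgG receptors, Fcer1g and C1q was not tested.

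Beside Fcer2a, 9 of 12 B cell markers fell, at a median of -0.94 on the log2 scale, and their summed level was 254 to 284 CPM in VE and 376 to 441 CPM in Aalter. Without Aalter-1, 10 fell and 2 rose, and with any other library left out between 3 and 7 fell. Cxcr5 fell to 12.3, 14.3 and 11.9 CPM in VE, against 39.8, 50.9 and 47.6 CPM in Aalter (-1.84, edgeR adjusted p = 0.00217), and Pax5 by 1.50 on the log2 scale (edgeR adjusted p = 0.00394). None of the 12 had a log2 fold change as low as that of Fcer2a (-2.80), and the difference was not tested. Cd79b (0.28) and Fcrla (0.11), named after their values were seen, did not pass, and were higher in VE without Aalter-1 (0.50 and 0.53, edgeR adjusted p = 0.000981 and 0.0021). Plasma cell markers gave 2 rises among 7 in edgeR, 6 in DESeq2 and 5 in limma-voom, with 7 without Aalter-1 and none with any other library left out. Their summed level lay at 3320 to 6210 CPM in VE and 744 to 2730 CPM in Aalter, a sum made up largely of Jchain. The part of B cell markers in the fall of Fcer2a was not tested.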

How the data were processed

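RNA from 6 mouse libraries (3 VE, 3 Aalter) was made into messenger RNA libraries (SMARTER kit), per the labels' protocols. The authors deposited estimated counts per gene, per the file headers, and between 10.47% and 12.24% of the values of a library were not whole. The submitters' processing notes name the build mm10. Read length, strand setting, counter and aligner: not given in the sources used here. GENCODE vM21 held 21804 of the 21956 gene IDs, and 4236 IDs were at 0 in all libraries. In 1 row an extra cell was ignored.

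The prefix and number of each column gave its sample. Counts were rounded and tested with edgeR 4.0.16 (R 4.3.3): TMM scaling, filterByExpr, robust quasi-likelihood fits over 12551 genes with no term but the group, and Benjamini-Hochberg adjustment with a threshold of 0.05. A gene rose or fell where it passed. Fold changes are VE over Aalter, SE is the log2 fold change over the square root of F, and CPM are TMM-scaled. The common biological coefficient of variation was 0.21.

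The members, lists and alternatives were chosen with earlier results of these data known. Named are all 9 members, up to 4 genes with the smallest p of each list, the genes behind a count of 5 or fewer, and the 3 nearest profiles (prior count 2), except that some genes are not reported here. On simulated data with 12551 genes, 70% of 100 genes changed by 1 on the log2 scale and 98% of 100 changed by 2 were recovered, and 6.15% of calls were false. The simulation gave all genes the same dispersion and held no library that stood apart as Aalter-1 did. These rates therefore need not hold for the libraries here. Every pair of libraries differed by more than sampling noise (lowest median chi-square 0.695, against 0.455 for noise alone). The alternatives tried were scaling by library size or RLE, limma-voom (limma 3.58.1), DESeq2 1.42.0, no filter, genes averaging 5 CPM or more, calls limited to a fold change of 2, the replicate number as a block, no immunoglobulin genes, each library left out, both libraries numbered 1 left out, and correction for GC content and length by splines with 5 degrees of freedom over 12520 genes. Figures used Python 3.11.15 and matplotlib 3.10.9.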

Additional observations from a re-analysis of the deposited data

How the results depend on the processing

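No log2 fold change of the 9 genes changed sign under the 17 alternatives. With each library left out in turn the log2 fold changes ranged from 1.01 to 1.81 for Fcgr1, 0.82 to 1.26 for Fcgr2b, 0.69 to 1.03 for Fcgr3, 0.64 to 0.82 for Fcgr4, 0.48 to 0.57 for Fcer1g, -3.14 to -2.51 for Fcer2a, 0.99 to 1.87 for C1qa, 0.99 to 1.81 for C1qb and 1.19 to 2.02 for C1qc. In those fits all genes gave 2 to 3561 rises and 177 to 3652 falls, and genes of the related lists 0 to 59 rises and 2 to 23 falls.

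Fcgr1 passed with DESeq2 (1.24), limma-voom (1.34), correction for GC content and length (1.24, and 1.35 with the replicate block), a mean of at least 5 CPM (1.23), no immunoglobulin genes (1.24) and neither library numbered 1 (1.92). C1qa and C1qb passed with DESeq2 (1.28 and 1.26), limma-voom (1.37 and 1.35), no immunoglobulin genes (1.28 and 1.27) and neither library numbered 1 (2.02 and 1.94), and C1qb with a mean of at least 5 CPM (1.26). DESeq2 and limma-voom called all 9, and edgeR 6.

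C1qc lost its call with library size scaling (1.26), no filter (1.41), correction for GC content and length (1.56, and 1.74 with the block) and the block alone (1.54, edgeR adjusted p = 0.0673), which changed no other call of the 9. With that correction Fcer1g was at 0.01 with or without the block, and Fcgr4 was at 0.46 and missed the threshold with it. Fcgr2b (0.96), Fcgr3 (0.81), Fcgr4 (0.72) and Fcer1g (0.52) did not reach a fold change of 2. All genes gave 495 rises with library size scaling, 3404 without both libraries numbered 1, and 207 rises and 999 falls at a fold change of 2, and 1538 falls with that correction (1232 with the block). The related lists gave 12 rises with library size scaling, 59 without both libraries numbered 1, and 9 rises and 7 falls at a fold change of 2. The cause of these changes was not tested.

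The deviations of same-numbered libraries from their group means correlated at 0.299, 0.272 and 0.0532, against -0.289 to 0.171 for libraries of different number. Both libraries numbered 1 also held the liver-made complement transcripts. The labels state no pairing, so the main fit did not take the numbers as pairs. Whether they mark a shared batch was not tested. The replicate block gave 1193 rises and 2074 falls over all genes. Depth bears most on Fcer2a, which had 38 to 45 estimated counts in VE.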

Other observations

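Markers of other cell types that bear Fc receptors were measured beside the 9 genes. Over all genes tested, 12.8% rose and 19.5% fell, and 27.8% and 28.5% did so without Aalter-1. Markers of natural killer cells gave 6 falls among 8, also without Aalter-1, and 1 or 2 with any other library left out. Their summed level overlapped, at 617 to 923 CPM in VE and 653 to 755 CPM in Aalter. Eomes was at 6.38, 6.20 and 5.96 CPM in VE and 30.9, 44.3 and 38.1 CPM in Aalter (log2 fold change -2.61, edgeR adjusted p = 0.00144). Of 7 tested dendritic cell markers 2 fell, Ccr7 (-2.41) and Zbtb46 (-2.33), and 3 fell and 1 rose without Aalter-1. Mast cell and basophil markers gave 4 rises and 2 falls among 8 tested, also without Aalter-1, and 2 rises and 1 fall with GC content and length corrected. Cma1, a protease gene of mast cells, fell by 2.09 on the log2 scale while Mcpt8, a basophil protease gene, rose by 0.51 (edgeR adjusted p = 0.00618 and 0.0289). The call of Mcpt8 was lost in the fit corrected for GC content and length (0.00, edgeR adjusted p = 0.992). Of 8 alveolar epithelial markers 3 rose, at 228 to 245 CPM summed in VE and 177 to 190 CPM in Aalter. Of 3 pan-leukocyte genes Laptm5 fell (-0.74), and neither of the 2 tested platelet genes passed in edgeR, DESeq2 or limma-voom, with 1 higher at an unadjusted p under 0.05 in edgeR. Without Aalter-1 both platelet genes rose, 3 alveolar epithelial markers rose and 1 fell, and 2 pan-leukocyte genes rose and 1 fell.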
